A study of Mus musculus with 8 samples.

Results

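Tight junction genes were examined in newborn mouse epidermis, as the transcripts of 5 genes, Cldn3, Cldn4, Marveld2, Marveld3 and Tjp3. They were chosen as the probe sets whose gene symbol in the authors' deposited table of knockout against control is exactly 1 of these names. This gave 7 probe sets of the 1803 named and 45032 tested ones, 3 of Cldn3 and 1 of each other gene. The series holds 8 Affymetrix Mouse 430 2.0 arrays of epidermis separated from dermis. 4 arrays are dKO, newborn C57Bl/6 mice labelled IR-/-, IGF-1R-/- (lacking receptors for insulin and for IGF-1), and 4 are wild-type newborn C57Bl/6 controls. How the receptor genes were deleted, in which cells, and whether animals were pooled are not given in the sources used here. The labels call the arrays biological replicates without naming animals, so p values measure only the spread between these samples. The authors had picked all genes with a name from these arrays, with an absolute fold of at least 1.5 and an unadjusted p of at most 0.0499, so a difference of each member was set in advance. Probe sets of these genes outside that table have no name here and were not used.

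Tight junctions are belts that seal the space between neighbouring epithelial cells and limit the passage of water and solutes. Claudins span the membrane and form the seal, proteins with a MARVEL domain accompany them, and zonula occludens proteins tie both to the actin cytoskeleton from inside the cell. In epidermis the sealing junctions lie in the granular layer, beneath the cornified envelope, where they add to the barrier of the skin.

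Of the 5 genes, 1 was higher and 4 were lower in dKO. Cldn4, a claudin of the granular layer, rose 1.91-fold, and Marveld2, which encodes tricellulin of the contacts where cell corners meet, fell by 0.83 on the log2 scale. For Marveld3, Tjp3 and Cldn3 the log2 differences were -0.99, -0.67 and -1.32 and missed the threshold, a Benjamini-Hochberg adjusted p under 0.05 in limma over all tested probe sets. This threshold was passed by 2.25% of all tested probe sets and by 41.8% of the 1396 named genes, so 2 of 5 members is near the share of named genes. The median difference of the 5 genes by their brightest probe sets was -0.83, against -0.068 over all tested probe sets and -0.59 over named genes. In these bulk samples, fewer cells of a type and less RNA per cell cannot be told apart.

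Median signals of the arrays were 40.7 to 51.7 units. Insr read 50.7 to 87.6 in dKO and 176.1 to 309.6 in controls, without overlap. The brightest Igf1r probe set read 314.7 to 369.1 in dKO and 456 to 707 in controls, also without overlap, and passed. The second brightest fell by 0.98 on the log2 scale. The third, with -0.65, and the dimmest, with 0.88 and thus higher in dKO, did not pass. In all, 447 probe sets were higher and 565 lower in dKO. Centring each array on its median moved the median difference by 0.125 and turned this split to 607 and 322, and quantile normalization moved it by 0.0627 and gave 470 and 465. The list of spinous and granular keratinocyte markers is wider than the granular layer, where the sealing junctions lie. Of these markers 8 of 20 had a name, 6 rose and 2 did not pass. Those 2 were Tgm3, with a log2 difference of -1.03 in its brighter probe set, and Casp14, with -0.67. The summed signal was 13140 to 15630 in controls and 33380 to 48170 in dKO. Of 7 basal keratinocyte markers 2 had a name. Krt15 fell by 1.66 on the log2 scale, and Itga3 had a difference of 0.45 in its brightest probe set that did not pass. Their summed signals, mostly of Krt15, were 8494 to 13980 in controls and 3714 to 5584 in dKO. Of 10 fibroblast markers 4 had a name, 1 rose and 3 did not pass, with sums of 1516 to 2147 in controls and 2441 to 3991 in dKO. Sparc, which rose, gave most of these sums, with means of 1546 units in controls and 2593 in dKO. Among those that did not pass, Col5a1 and Fbn1 had differences of 0.80 and 1.05 in their brightest probe sets, and Fap had -1.39. Of 4 red cell markers 2 had a name, 1 rose and 1 did not pass, with sums of 43.3 to 70.6 and 164 to 456. Of 12 markers of myeloid and Langerhans cells 7 had a name, 5 fell and 2 did not pass, with sums of 2221 to 3538 in controls and 443.4 to 1696 in dKO, and all 3 named of 6 T cell markers fell, with sums of 418.3 to 536.6 and 86 to 228.6. The part of these cells in the differences described here was not tested. None of 8 endothelial markers had a name, so that the presence of this cell type was not tested.

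Cldn4 and Cldn3 are direct neighbours on mouse chromosome 5 in the RefSeq gene table (GRCm38.p6), with 0 genes listed between them, and are transcribed away from each other. Their promoter windows, 250 bases before to 50 after the start, are shown because the adjacent genes had differences of opposite sign. That of Marveld2 is shown because, of the 4 lower members, it was the one that passed the threshold. The sequences are RefSeq's on GRCm38.p6, 5′ to 3′ on the gene's own strand. Capitals mark 2 motifs, TGANTCA of the AP-1 transcription factors and CACCTG or its reverse complement, an E-box bound by the repressors of the Snail and Zeb families. The Cldn4 window is chr5:134946885-134947184 (minus strand), the Cldn3 window chr5:134985964-134986263 (plus strand) and the Marveld2 window chr13:100616922-100617221 (minus strand).
Cldn4: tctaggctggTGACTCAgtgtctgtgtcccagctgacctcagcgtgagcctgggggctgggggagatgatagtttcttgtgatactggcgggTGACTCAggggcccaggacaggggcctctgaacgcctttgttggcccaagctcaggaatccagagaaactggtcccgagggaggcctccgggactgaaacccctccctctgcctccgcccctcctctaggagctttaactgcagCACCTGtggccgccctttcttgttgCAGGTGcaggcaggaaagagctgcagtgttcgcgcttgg
Cldn3: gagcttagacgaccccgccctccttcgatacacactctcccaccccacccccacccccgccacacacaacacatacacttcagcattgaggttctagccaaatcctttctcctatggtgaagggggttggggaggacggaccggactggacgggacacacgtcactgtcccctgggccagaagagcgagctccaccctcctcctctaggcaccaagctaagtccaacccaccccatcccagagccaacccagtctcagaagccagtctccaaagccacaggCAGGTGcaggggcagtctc
Marveld2: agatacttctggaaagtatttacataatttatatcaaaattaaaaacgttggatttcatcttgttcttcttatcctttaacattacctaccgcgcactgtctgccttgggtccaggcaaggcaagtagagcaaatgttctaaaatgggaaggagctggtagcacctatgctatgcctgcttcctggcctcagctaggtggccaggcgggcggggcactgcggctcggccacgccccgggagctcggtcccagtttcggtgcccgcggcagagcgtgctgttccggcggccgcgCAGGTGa

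A search of both strands for 6 motifs covered 6 windows of 4 members, since Marveld2 and Tjp3 have 2 starts each in the table. Of these 4 genes, Cldn4 was the one with the AP-1 letters, at 2 matches whose first bases lie 240 and 158 bases before the start. Of 32851 promoter windows, 7.81% held at least 1 such match and 0.46% at least 2. The E-box letters occurred in all 6 windows, against 20.2% of all windows. The 2 Marveld2 windows overlap and hold the same E-box match, so it was counted in both. In Cldn4 they occurred at -14 and again at 12 bases after the start, and 2.88% of all windows held 2 or more. The KLF letters CACCC were in 4 of 6 windows (57.5% of all), 5 times in Cldn3 and once in Cldn4, where the match overlapped the second AP-1 match. TATAAA was found in both overlapping Marveld2 windows (13.6% of all). The letters AACNGGTT of Grainyhead-like factors and GTAAACA of FoxO factors were in 0 of 6 windows, and in 2.09% and 3.65% of all. A match of letters is not a shown binding site.

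**Figure D1:**
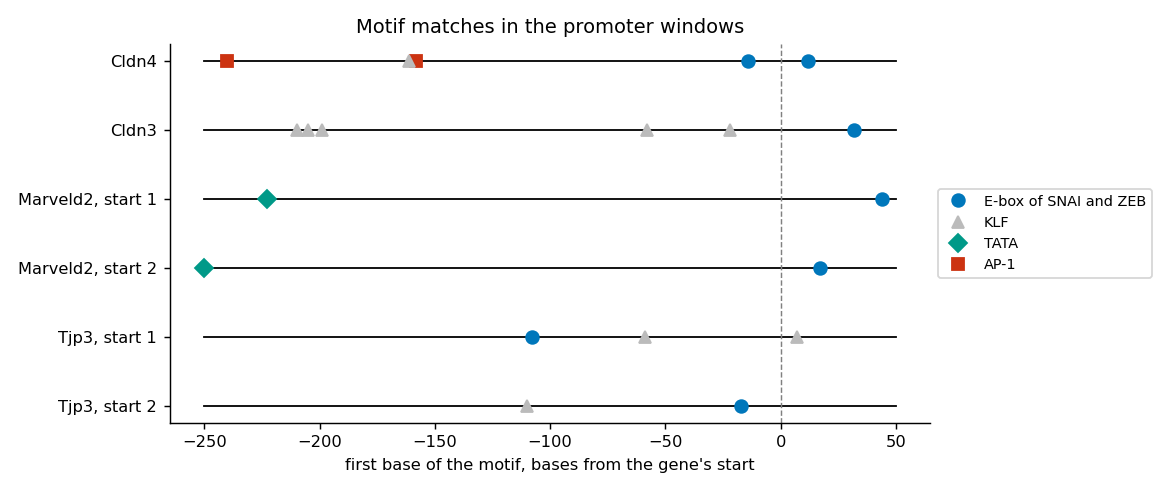
First base of each motif match in the 6 promoter windows, in bases from the start of the gene (dashed line), with 1 line per window and both strands searched. Cldn4 is the window with 2 AP-1 matches, at -240 and -158, and each window has an E-box match.

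Cldn4 was higher in dKO. Its signal was 1771.3, 1991.5, 1514.5 and 1745.3 units in dKO replicates 1 to 4 and 899.4, 593.4, 910 and 1448.5 in control replicates 1 to 4. Every dKO array lay above every control, and control replicate 4 came closest to the dKO arrays. The dKO mean was 1756 ± 195 and the control mean 963 ± 356 (SD, n = 4 each). The log2 difference was 0.93 (SE 0.21, 95% confidence interval 0.47 to 1.39, limma Benjamini-Hochberg adjusted p = 0.0412), and an exact two-sided permutation test gave p = 0.0286, the smallest that 4 against 4 arrays allow. In the authors' deposited table the ratio was 1.78. The call ended without any single array other than control replicate 4 (limma Benjamini-Hochberg adjusted p = 0.0577 to 0.123), and without control replicate 4 the difference was 1.15 (limma Benjamini-Hochberg adjusted p = 0.00571). It also ended with 32 added to each signal, with quantile normalization and without the intensity trend.

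The summed signal of markers of wounded and stressed keratinocytes was also higher in dKO. All 11 of 11 markers of that list had a name, 9 rose and 2 did not pass. Their summed signal was 8451 to 9270 in control replicates 1 to 3 and 21430 in control replicate 4, the control with the highest Cldn4. In dKO it was 91560, 70700, 90000 and 49240 in replicates 1 to 4. Cldn4 did not share this order, and the orders of control replicates 1 to 3 differed too. Probe sets with a signal of 0 had been left out beforehand, so no marker of that list could be at 0. Lcn2 and S100a9 read as low as 0.7 and 4.6 units in controls. The part of the listed markers in the Cldn4 difference was not tested. Grhl3, a Grainyhead-like transcription factor of epidermal barrier formation, rose by 0.76 on the log2 scale (SE 0.15), with a control mean of 714 ± 121 and a dKO mean of 1209 ± 210 units (SD, n = 4 each). The limma Benjamini-Hochberg adjusted p of Grhl3 no longer passed when 1 of 3 arrays was left out, at 0.0589 for dKO replicate 2, at 0.0731 for dKO replicate 3 and at 0.0849 for control replicate 1, or when the intensity trend was left out, at 0.187.

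**Figure D2:**
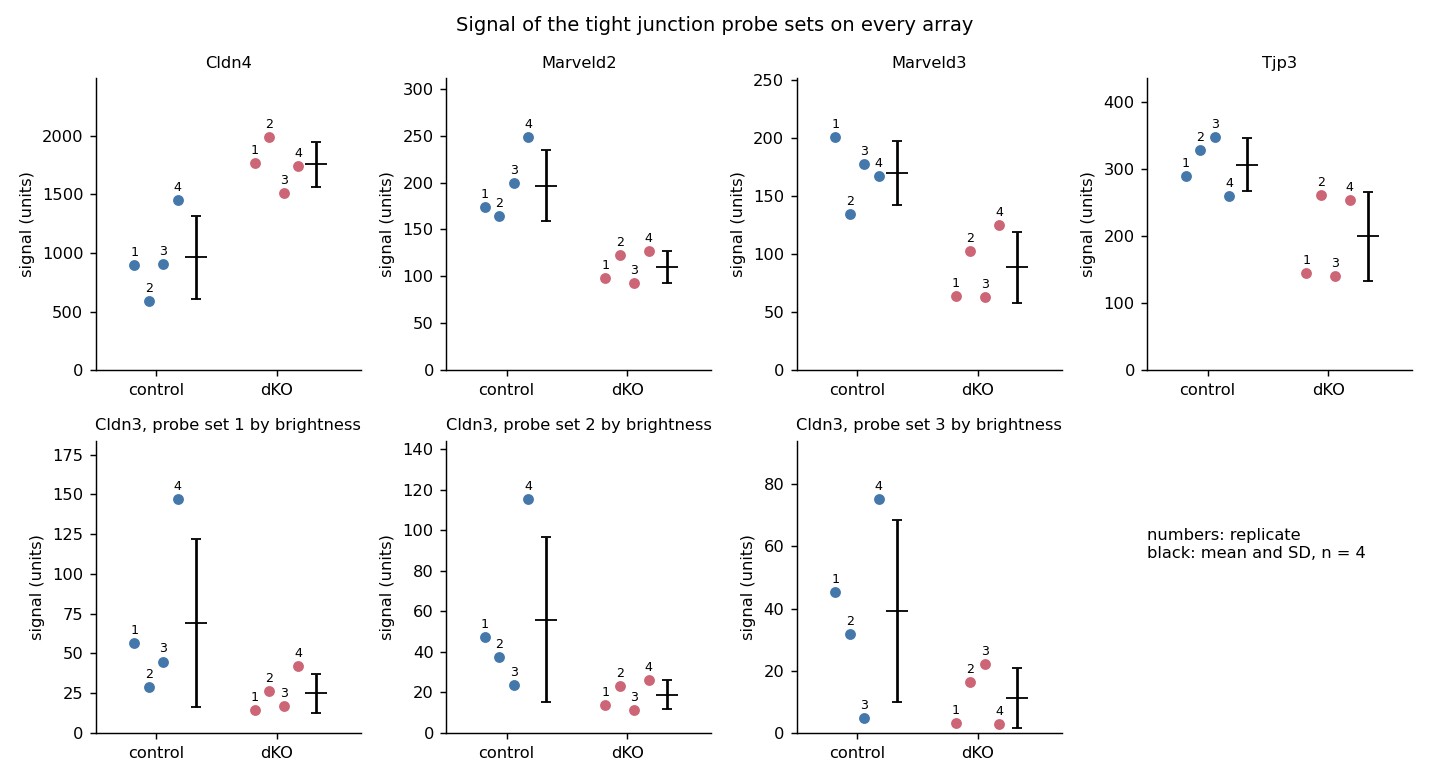
Signal in units (linear axis from 0) of the 7 probe sets in control (blue) and dKO (red) arrays, with the replicate number above each point and the mean and SD in black (n = 4). The groups do not overlap for Cldn4, Marveld2 and Marveld3 and overlap for Tjp3 and all 3 Cldn3 probe sets.

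The MARVEL proteins Marveld2 and Marveld3 were lower in every dKO array than in every control. Marveld2 read 98.5, 123.3, 93.1 and 126.7 units in dKO replicates 1 to 4 and 173.8, 164.7, 199.8 and 248.8 in control replicates 1 to 4. The means were 110.4 ± 17.1 and 197 ± 37.7 (SD, n = 4 each), with dKO replicates 1 and 3 the lowest and control replicate 4 the highest. The log2 difference of Marveld2 was -0.83 (SE 0.19, 95% confidence interval -1.23 to -0.42, limma Benjamini-Hochberg adjusted p = 0.0409), and the ratio in the authors' deposited table was 0.537. This call ended without any single array other than dKO replicate 4 (limma Benjamini-Hochberg adjusted p = 0.0669 to 0.125), and with 32 added, quantile normalization, median centring or no intensity trend. Groups without overlap occurred in 9.37% of all tested probe sets and 68.1% of named genes, against 3 of the 5 members.

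Marveld3, related in sequence to occludin and tricellulin, did not pass. Its signal was 64.3, 102.6, 62.8 and 125.3 units in dKO replicates 1 to 4 and 201.4, 135, 177.6 and 167.4 in control replicates 1 to 4. The highest dKO array, replicate 4, lay just under the lowest control, replicate 2. The means were 88.8 ± 30.5 and 170.3 ± 27.5 (SD, n = 4 each). The log2 difference was -0.99 (SE 0.25, 95% confidence interval -1.53 to -0.45, limma Benjamini-Hochberg adjusted p = 0.0619). Without dKO replicate 4 it was -1.18 and passed (limma Benjamini-Hochberg adjusted p = 0.0213). In the authors' deposited table the ratio was 0.588.

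Tjp3 encodes ZO-3, a scaffold protein of the junction's inner plaque. Its signal was 145, 261.3, 140.6 and 253.8 units in dKO replicates 1 to 4 and 290.3, 329, 348.5 and 259.7 in control replicates 1 to 4. The dKO arrays fell into a low pair, replicates 1 and 3, and a pair at the level of control replicate 4, so the groups overlapped. The means were 200.2 ± 66.4 and 307 ± 39.7 (SD, n = 4 each), and the log2 difference was -0.67 (SE 0.22, 95% confidence interval -1.14 to -0.20, limma Benjamini-Hochberg adjusted p = 0.153). The authors' deposited table gives a ratio of 0.507, a larger reduction than the 1.59-fold of the signals.

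Cldn3, a claudin of many simple epithelia and glands, was the dimmest member. Its brightest probe set read 14.5, 26.3, 17 and 41.9 units in dKO replicates 1 to 4 and 56.4, 28.7, 44.9 and 146.8 in control replicates 1 to 4. It stood above the median signal of the array on 2 of 8 arrays, so that its values are close to those of most dim probe sets. The groups overlapped, and control replicate 4 read far above the other controls. The log2 difference was -1.32 (SE 0.52, 95% confidence interval -2.44 to -0.20, limma Benjamini-Hochberg adjusted p = 0.242), and -0.73 with 32 added to each signal. Without control replicate 4 it was -0.87.

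The other Cldn3 probe sets had the same sign. The second brightest read 11.5 to 26.2 units in dKO and 23.6 to 115.3 in controls, a log2 difference of -1.40 (SE 0.52, limma Benjamini-Hochberg adjusted p = 0.209). The dimmest read 2.9 to 22.2 and 4.8 to 75.1, a difference of -1.81 (SE 0.93, limma Benjamini-Hochberg adjusted p = 0.396). By their suffix, the brighter pair may also bind transcripts of other genes. The 3 probe sets differed in which array was low, with dKO replicate 4 the highest of its group in the brighter pair and the lowest in the dimmest. The authors' deposited table gives ratios of 0.522, 0.560 and 0.651 from the brightest to the dimmest.

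The controls with the highest Cldn3 were those with the highest signals of skin appendage markers, a pattern noticed in the values that has no test. Of 8 sebocyte markers 5 had a name and 5 fell, with summed signals of 3543, 1398, 1503 and 4392 in control replicates 1 to 4 and 244.2 to 437.8 in dKO. Of 14 hair follicle markers 7 had a name, 5 fell and 2 did not pass, with summed signals of 15400, 5864, 4936 and 19800 in the controls and 1555 to 4604 in dKO. The highest control on both lists and in all 3 Cldn3 probe sets was replicate 4, and the second highest was replicate 1. Probe sets with a signal of 0 had been left out beforehand, so no marker of these 2 lists could be at 0. Pparg and Krt33a read as low as 1.5 and 1.0 units in dKO. The pattern was not particular to these lists. Of 7 melanocyte and Schwann cell markers 2 had a name and did not pass, with summed signals of 519.8, 357.5, 405 and 826.8 in control replicates 1 to 4. Replicates 4 and 1 were again the highest controls, while the dKO sums, 670.1 to 1270, lay mostly above the controls. Of 10 markers of simple epithelium and glands 2 had a name. Krt7 rose by 1.10 on the log2 scale, and Krt8 had a difference of -0.96 in its brightest probe set that did not pass, while another of its probe sets fell by 1.29. They had summed signals of 286.6 to 419.9 in controls and 332.9 to 619.5 in dKO. The part of these cells in the Cldn3 difference was not tested.

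The 4 lower genes shared an order among the dKO arrays. In the brightest probe set of each, dKO replicates 1 and 3 both lay below replicates 2 and 4, an arrangement found in 21.7% of all tested probe sets and 27.4% of named genes. This was noticed in the values and has no test. Against the control mean, replicates 1 and 3 stood at -1.07 and -1.12 for Tjp3, where replicates 2 and 4 stood at -0.22 and -0.26, and at -1.39 and -1.42 for Marveld3, where the others stood at -0.72 and -0.43. Cldn4 did not share the order, at 0.95, 1.12, 0.73 and 0.93 in replicates 1 to 4.

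The summed signals of several marker lists also had this order. Of 12 myeloid and Langerhans cell markers 7 had a name, 5 fell and 2 did not pass. Their sum was 443.4, 1283, 575.8 and 1696 in dKO replicates 1 to 4 and 2221 to 3538 in controls. The T cell markers, with 3 of 6 named and 3 lower, summed to 86, 177.1, 152.7 and 228.6 in dKO and 418.3 to 536.6 in controls. Coro1a gave most of these dKO sums, at 68.9, 141.8, 121.3 and 188.3 in its brightest probe set. Cd3g had the order, and Cd3d, at 3.3, 2.9, 5.4 and 3.7, did not. With probe sets at a signal of 0 left out beforehand, no marker of either list could be at 0. The order was not particular to immune cells. In dKO replicates 1 to 4, sebocyte markers summed to 343.2, 416.4, 244.2 and 437.8, and markers of simple epithelium and glands to 332.9, 525.4, 518 and 619.5. Neither named marker of the latter list had the order by itself. Krt7 read 277.3, 452.5, 452.9 and 560.1, and the brightest Krt8 probe set 55.6, 72.9, 65.1 and 59.4. Fibroblast markers, whose sums were higher in dKO, read 2441, 3991, 2999 and 3178. The keratinocyte, hair follicle, melanocyte and red cell lists did not have it. The part of these cells in the tight junction differences was not tested.

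**Figure D3:**
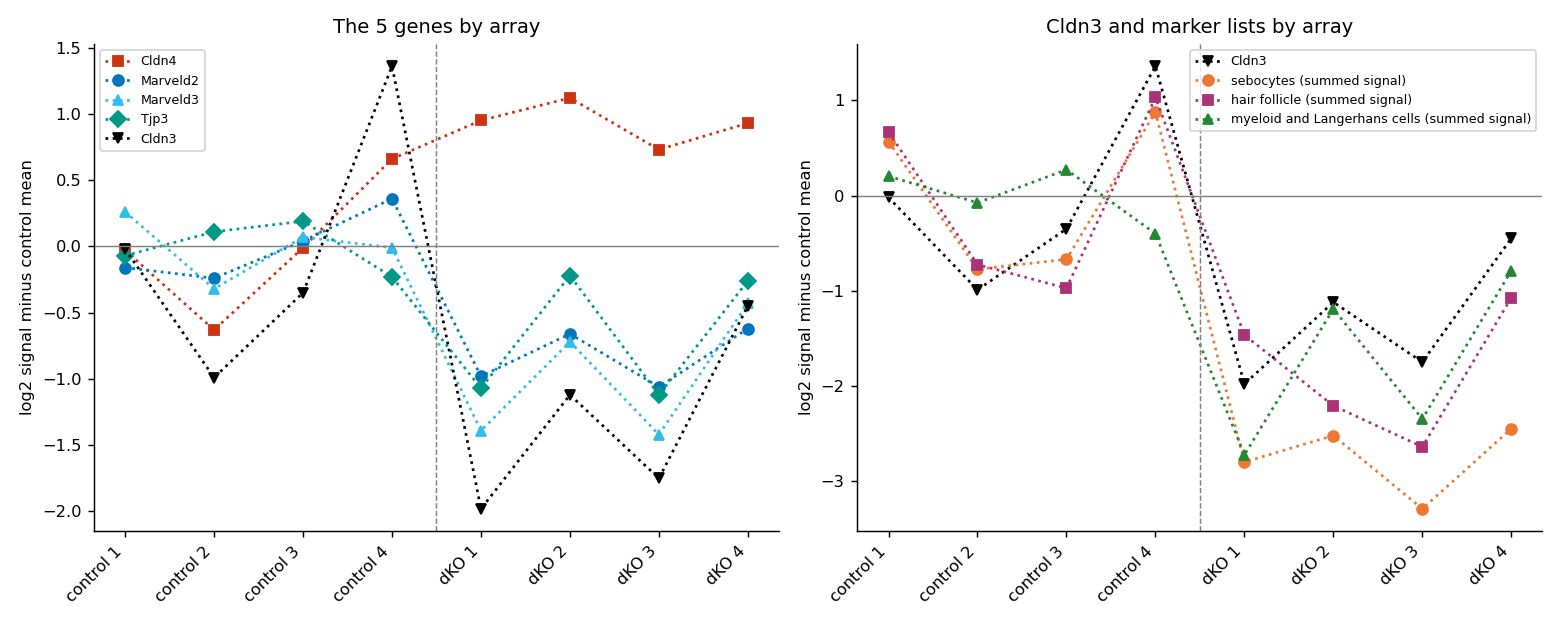
Left, log2 signal of the brightest probe set of each of the 5 genes minus its control mean on every array; right, the same for Cldn3 and for the summed signals of 3 marker lists. Lines only join points of 1 gene or list; dKO replicates 1 and 3 are the lower arrays for Marveld2, Marveld3, Tjp3 and Cldn3, and control replicate 4 is the highest for Cldn3, sebocytes and hair follicle.

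Differences between members were compared within arrays, in 10 pairs by brightest probe set. Cldn4 differed from Cldn3, Marveld2, Marveld3 and Tjp3 by 2.26 (SE 0.41), 1.76 (SE 0.17), 1.92 (SE 0.31) and 1.60 (SE 0.39) on the log2 scale. Each of these 4 pairs reached the smallest p of the exact two-sided permutation test, 0.0286, and 0.0715 after Benjamini-Hochberg adjustment over the 10 pairs, so that 0 pairs passed. Neither outcome is a test of the genes. The members had been picked for their differences on these arrays, which set Cldn4 apart from the lower genes in advance. And 0.0715 is the lowest adjusted value that 4 of 10 pairs at the smallest p can reach. The other 6 pairs, among the lower genes, had differences of -0.65 to 0.16 with adjusted exact permutation p of 0.342 to 0.771. The widest of these, Cldn3 against Tjp3, had an SE of 0.61. A p that misses the threshold does not show that these genes responded alike.

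Of 61 other symbols on the tight junction lists, with older and current symbols of some genes both counted, 3 had a name in the authors' table. Cldn8, a claudin known from kidney and gut epithelia, fell by 1.36 on the log2 scale (SE 0.23, limma Benjamini-Hochberg adjusted p = 0.0108). Its mean was 181 ± 54.6 units in controls and 68.7 ± 9.48 in dKO (SD, n = 4 each). It read 61.8, 77.3, 76.3 and 59.2 units in dKO replicates 1 to 4 and 253.8, 175.2, 121.2 and 174.5 in control replicates 1 to 4, without overlap. This call ended without the intensity trend (limma Benjamini-Hochberg adjusted p = 0.1) and held without any single array. Ildr2, of the angulin family that recruits tricellulin to cell corners, had a difference of -2.75 (SE 0.86) that did not pass, and -1.11 with 32 added and -1.64 without dKO replicate 1, which did. Its signal was 1.1 in dKO replicate 1, 16.9 to 29.9 in the other dKO arrays and 67.5 to 89 in controls. Pard6b, of the Par polarity complex, which acts in junction assembly, had differences of 0.76 and 0.88 in its 2 probe sets and did not pass. The brighter one had 1.04 without dKO replicate 1, which did pass, and 0.51 without dKO replicate 3. Ocln, Tjp1, Cldn1, F11r and Cgn had no name here and were not shown to be unchanged.

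Among genes of adherens and gap junctions, 2 passed the test and both were lower in dKO. Ssx2ip, which binds afadin at adherens junctions, fell by 0.93 (SE 0.12), and Vcl, the actin linker vinculin, had a difference of 0.53 that did not pass, and 0.32 without control replicate 2. Gjb5, a connexin of gap junctions, fell by 2.03 (SE 0.29), with means of 1433 ± 198 units in controls and 382 ± 165 in dKO (SD, n = 4 each). The calls of Ssx2ip and Gjb5 ended without the intensity trend (limma Benjamini-Hochberg adjusted p = 0.0776 and 0.105). Gjb2, another connexin, had a difference of 1.20 that did not pass, and 1.57 without dKO replicate 4, which did. None of the 18 desmosome genes had a name. Of the regulators, besides Grhl3, Ehf of the ETS family had a difference of 1.53 in its brightest probe set that did not pass, and 2.05 without dKO replicate 4, which did. Its other pair rose by 2.05 and 2.12. In all, 9 of 132 other symbols of the junction lists had a name, of which 1 rose, 3 fell and 5 did not pass, with a median difference of 0.53. That 4 of 9 passed is near the 41.8% of all named genes that did, so the count is not a result about junction genes.

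**Figure D4:**
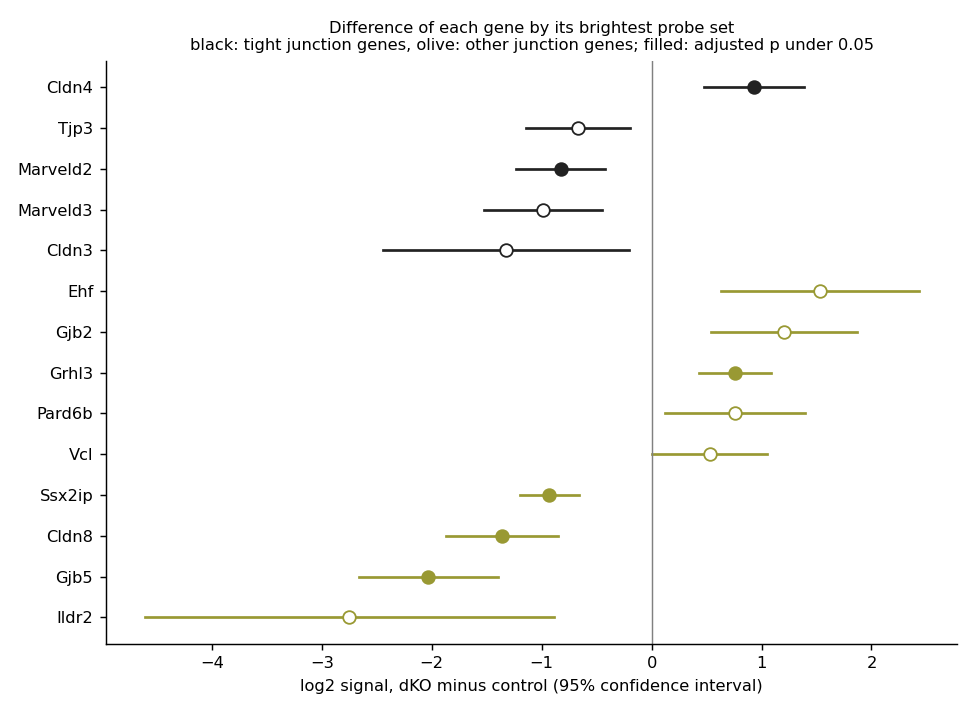
Log2 signal, dKO minus control, with the 95% confidence interval from limma for each gene's brightest probe set, the 5 tight junction genes in black and the 9 other named junction genes in olive, filled where the adjusted p is under 0.05. Cldn4 is the member to the right of 0, and Cldn8 and Gjb5 lie to the left of 0.

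The genes closest to each member were found by the root mean square distance between log2 profiles, each set against its own control mean, over 8 arrays. Of 1396 named genes, up to 1218 were compared, those with a mean log2 signal at or above the median of all tested probe sets. Dimmer named genes were left out, and Cldn3 itself lay below that level. For Cldn4 they were Exoc4 (distance 0.106), of the exocyst, and Cst6 (0.127), cystatin E/M, a protease inhibitor of the upper epidermis, against a median distance of 1.18. For Marveld2 they were Art4 (0.107), an ADP-ribosyltransferase family member, and Acat1 (0.125), a mitochondrial thiolase. Rassf6 (0.0919) and Tox (0.14) lay closest to Marveld3, and Pdlim4 (0.135) and Zfand6 (0.154) to Tjp3. The closest to Cldn3 were Foxc1 (0.321), a forkhead transcription factor, and Cpxm2 (0.412), farther off than for any other member. The distance describes likeness on these arrays and includes the difference between the groups.

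**Figure D5:**
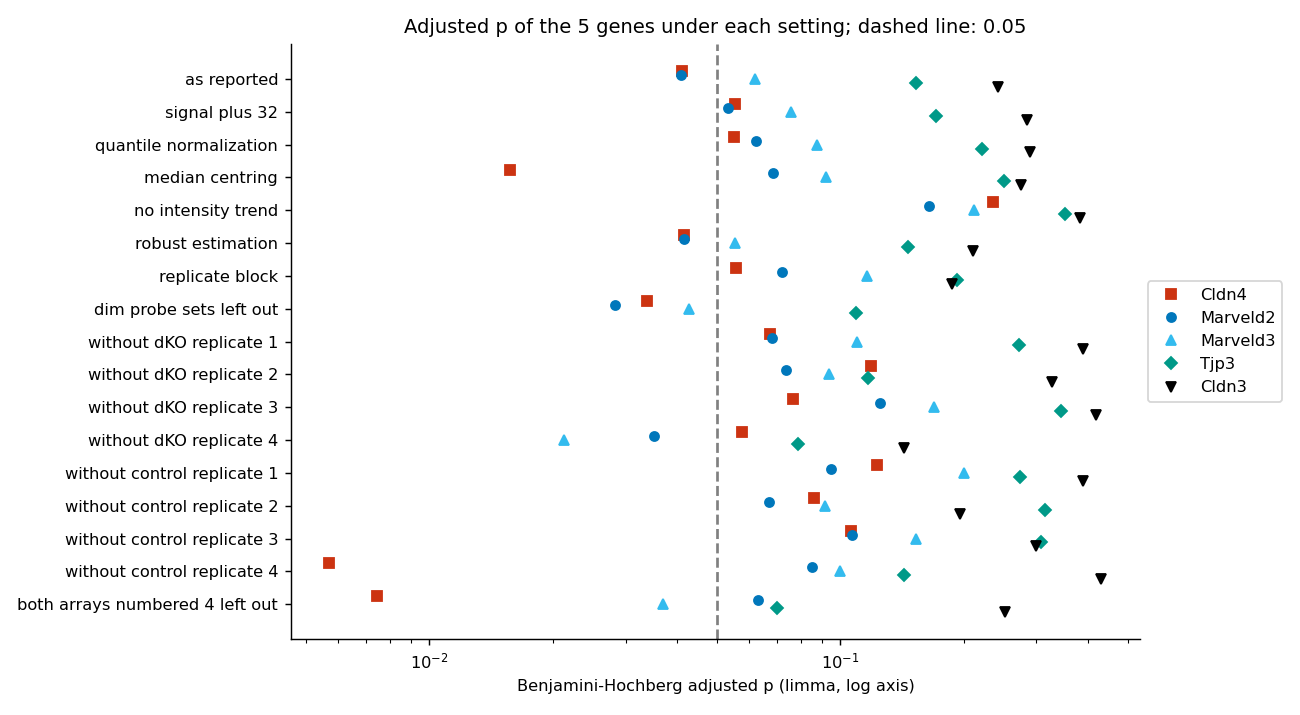
Benjamini-Hochberg adjusted p from limma (log axis) of the brightest probe set of each gene as reported and under 16 other settings, with the 0.05 threshold dashed. Cldn4 and Marveld2 lie near the line, and Tjp3 and Cldn3 stay to its right in every setting shown (Cldn3 has no value where dim probe sets were left out).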

How the data were processed

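Epidermal RNA of 4 dKO and 4 control samples was hybridised to Affymetrix Mouse 430 2.0 arrays. The authors deposited a linear intensity for every probe set on each array. The submitters' processing notes list MAS5 and Partek without their roles. The 2% trimmed mean, computed from the values, was 250 on each array. The authors' deposited table gives, per the file headers, ratios (knockout to control), unadjusted p-values, and 2 scores that were not used, signed folds and F statistics. The sources used here do not give its normalization.

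Of 45101 probe sets, 64 controls and 5 with a signal of 0 were left out. Log2 of the deposited intensity was tested with limma 3.58.1 in R 4.3.3 (lmFit, eBayes with an intensity trend, genotype as the term). The procedure was tested on simulated data, with known differences set only in probe sets at or above the median level. That range does not include Cldn3. Members, lists and tests were chosen with earlier results of these data known. Genes named were the members, listed junction genes with a name, Insr, Igf1r, and the 2 nearest genes of each member. Marker genes appear as lists, and the single markers named, such as Krt7 and Krt8, were named after their values were seen. The number of arrays limits the precision. Alternatives were 32 added to the signal, quantile normalization, median centring, no intensity trend, robust estimation, replicate number as a block, dim probe sets left out and each array left out. Deviations of same-numbered arrays from their group means had correlations of -0.0879 to 0.0433. These gave no sign that numbers pair samples but cannot exclude it, and the labels name no pairs.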

Additional observations from a re-analysis of the deposited data

Results flagged for a closer look

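In 48 groups of 4 arrays, 2 for each probe set of the tight junction genes, the other junction genes and the receptors, 1 array stood far from the rest of its group by Dixon's test, where chance gives about 1 in 20 groups. Control replicate 4 had a Gjb2 signal of 3740 units, where the rest of the controls had 2504 to 2617, a gap of 0.909 of the range of the group. No probe set of the 5 tight junction genes had such an array.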

How the results depend on the processing

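The sign of the difference of each of the 5 genes was the same in every setting tried (15 for Cldn3 and 16 for the others). Of 16 settings, 11 ended the call of Cldn4 and 13 that of Marveld2. The Cldn4 difference was 0.91 with 32 added, 0.91 with quantile normalization and 0.93 without the intensity trend or with the replicate number as a block (limma Benjamini-Hochberg adjusted p = 0.0553, 0.0552, 0.235 and 0.0558), and 0.72 to 1.15 with each array left out. The Marveld2 difference was -0.68 with 32 added, -0.745 with quantile normalization, -0.70 with median centring and -0.83 without the trend or with the replicate block (limma Benjamini-Hochberg adjusted p = 0.0533, 0.0623, 0.0685, 0.164 and 0.0722), and -0.91 to -0.71 with each array left out. With both arrays numbered 4 left out, an alternative chosen after seeing the data, Marveld2 was at -0.78 and did not pass, and Marveld3 was at -1.18 and passed. Marveld3 also passed at -0.99 with dim probe sets left out, where fewer probe sets were tested (limma Benjamini-Hochberg adjusted p = 0.0429), and ran from -1.18 to -0.85 with each array left out. Tjp3 ran from -0.82 to -0.52 and Cldn3 from -1.66 to -0.87 with each array left out, and neither passed in any setting. Over the whole table the count of calls was 1012, 60 without the intensity trend, 1525 with both arrays numbered 4 left out, 698 with the replicate block and 353 to 1417 with each array left out. Of the 9 other junction genes 4 passed, 5 with the replicate block, 3 to 6 with each array left out and 0 without the intensity trend in limma, where 7 had an unadjusted p under 0.05. With 32 added, 0 of 10 pairs passed, as without. For calls lost under a setting the cause was not tested. Signals of Cldn3 near those of most dim probe sets limit what its differences show.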
